A study of Homo sapiens with 8 samples.

Results

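Collagen chains were followed in the human glioblastoma line U87 after knockdown of the small GTPase RND3. Chains were taken as all genes whose symbol reads COL, a number, A and a number, found by matching each probe's transcript accession to the RefSeq gene table. This gave 44 genes, measured by 56 probes, out of 19483 named genes and 42405 probes on the array.

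Cells were transfected with siRNA against RND3 (siRND3, which the labels call RhoE KD) or with non-silencing siRNA (siControl, labelled NSC), both carried by the same lipid reagent. Total RNA from each sample was read in a single colour on its own Agilent array, with 3 siControl and 3 siRND3 arrays at 24 h and 1 of each at 48 h. The methods name a pair of custom siRNAs against RND3 and do not say which array received which. Nothing in the labels shows that replicates were separate transfections, so the p-values measure the spread between these arrays, which may be technical.

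Collagens are secreted trimers built from alpha chains, each chain being the product of its own gene. Fibrillar collagens form the cables of the matrix, type IV collagen forms the mesh of basement membranes, and the fibril-associated (FACIT), beaded-filament, anchoring-fibril, multiplexin and transmembrane collagens decorate fibrils, link them to membranes or span the cell surface. Chains are hydroxylated, glycosylated and folded in the endoplasmic reticulum, trimmed and crosslinked outside the cell, and read by integrins and other receptors. In glioma, where the brain's own parenchyma holds little fibrillar collagen, collagens are known mainly from the vessel wall and from the matrix that mesenchymal-like tumour cells lay down.

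RND3 itself checks the labels. Its log2 signal at 24 h was 11.88, 11.91 and 11.90 on the siControl arrays and 10.12, 10.18 and 10.42 on the siRND3 arrays. The groups were far apart, and the siRND3 mean was 31.7% of the siControl mean (limma adjusted p 0.000346). At 48 h RND3 read 11.48 in siControl and 9.84 in siRND3 cells. The scanner software marked 68.3% to 70.7% of probes per array as well above background, meaning brighter than the local background by its own significance test. A single slide and scan held every array, with siRND3 in its first row and siControl in its second, so position on the slide and treatment cannot be told apart.

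Most collagen chains had a probe well above background in these cells. That mark alone does not show that a gene is expressed. A probe of CDKN2A, known to be deleted in U87, had it on all 8 arrays, at 9.13 to 9.58. Of the 56 collagen probes, 40 to 43 were well above background on each array, and 37 probes of 30 genes were so on all 8. Tested were probes that either or both treatments showed well above background on their full set of 3 arrays at 24 h, which 41 probes of 32 genes passed. Such a filter can admit a probe through the group where it is bright. The 12 genes with no tested probe were COL2A1, COL3A1, COL11A1, COL24A1, COL4A3, COL6A5, COL6A6, COL19A1, COL21A1, COL17A1, COL25A1 and COL28A1. Of their probes, 7 were well above background on no array, those of COL11A1, COL4A3, COL6A5, COL6A6, COL25A1 and COL28A1 and 1 of the COL19A1 probes. COL3A1, a major fibrillar chain of vessels and skin, read 5.23 on siControl replicate 3 at 24 h and between 1.34 and 1.37 on the other 7 arrays, where it was not well above background.

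Among the tested probes the arrays of a group lay close together. The SD of the log2 signal within a group of 3 arrays at 24 h ranged from 0.02 to 0.51 over collagen probes, with a median of 0.11. The heat map of all tested collagen probes shows few rows that differ between the treatments at 24 h and more that do at 48 h.

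**Figure D1:**
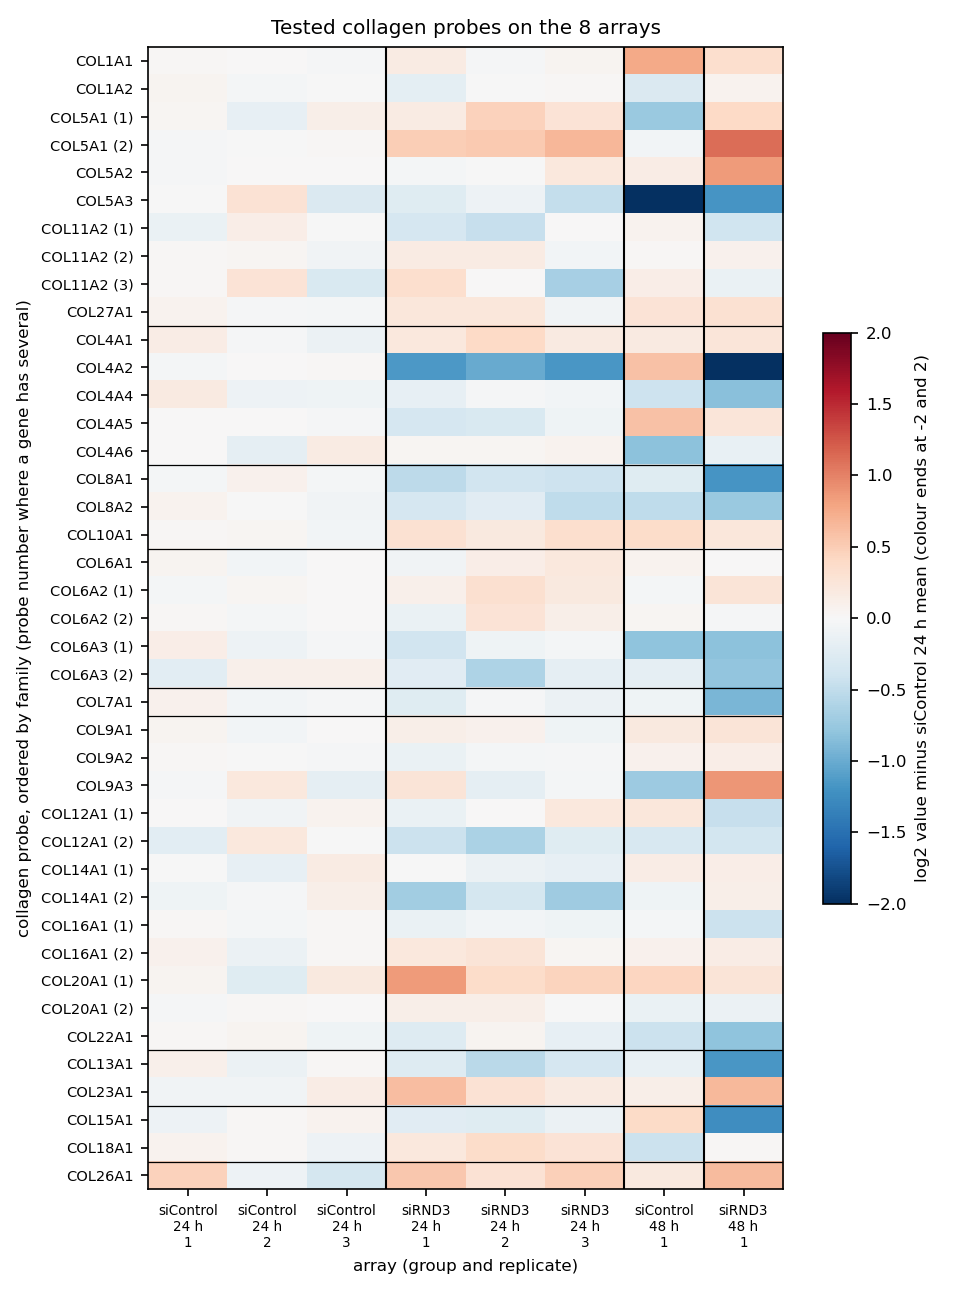
Each row is 1 of the 41 tested collagen probes, grouped by family, and each column 1 of the 8 arrays, with the colour giving the log2 signal minus the siControl 24 h mean of that probe. COL4A2 is the bluest row on the siRND3 arrays, and the siRND3 array at 48 h holds the strongest colours of both kinds apart from COL5A3.

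At 24 h, 4 of the 32 tested collagen genes passed an adjusted p of 0.05 in limma, adjusted over all 28762 probes tested. COL4A2, a main chain of basement membranes, COL8A1 of the short-chain network collagens and COL14A1 of the FACIT collagens fell, and COL5A1, the main chain of type V collagen, on which fibrils nucleate, rose. The 3 lower genes were 9.38% of the collagens tested, where 9.26% of all genes were lower, and the single higher gene was 3.12%, where 7.16% of all genes were higher. Both shares were near or below those over all genes.

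Over the 32 collagen genes, with the brightest probe standing for each, the median log2 difference of siRND3 minus siControl was -0.02, with quartiles at -0.18 and 0.09, and over all genes tested it was 0.04, with quartiles at -0.13 and 0.19. The differences were below 0 in 16 collagen genes and above 0 in 16. The siRND3 and siControl arrays did not overlap in 18 of the 41 collagen probes (43.9%), where 34.4% of all probes did not. In 10 of these the siRND3 arrays were the lower and in 8 the higher.

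COL4A2 read 11.51, 11.55 and 11.57 on the siControl arrays and 10.40, 10.54 and 10.38 on the siRND3 arrays at 24 h. Every siRND3 array lay about 1 log2 unit under every siControl array. The signal fell by 1.10 on the log2 scale (SE 0.08, n = 3 per group, limma adjusted p 0.000609), which is 2.14-fold, and the exact permutation test (two-sided, over 20 arrangements) gave p = 0.1, as low as this design can go. On the 48 h arrays COL4A2 was 12.13 in siControl and 8.50 in siRND3. That difference of -3.63 (SE 0.13, limma adjusted p 0.000141), 12.4-fold, was the widest of any tested collagen probe at either time.

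COL8A1, whose product lines vessel walls and the Descemet membrane of the eye, read 10.88, 11.00 and 10.87 on the siControl arrays and 10.40, 10.54 and 10.50 on the siRND3 arrays at 24 h. The groups did not overlap, and the signal fell by 0.44 (SE 0.08, limma adjusted p 0.0179). Without siControl replicate 1, 2 or 3 the adjusted p became 0.0635, 0.0723 or 0.0671. At 48 h the arrays read 10.67 in siControl and 9.73 in siRND3, a difference of -0.93 (SE 0.14, limma adjusted p 0.00529).

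COL14A1, a FACIT chain found on type I fibrils, was measured by a pair of probes that differed. The brighter read 6.69, 6.76 and 6.89 on the siControl arrays and 6.08, 6.43 and 6.07 on the siRND3 arrays, a fall of 0.58 (SE 0.12, limma adjusted p 0.029). The dimmer read 3.67, 3.52 and 3.85 against 3.67, 3.56 and 3.52, so that the groups overlapped, and gave -0.09 (limma adjusted p 0.609). The call on the brighter probe was lost when any of the 3 siControl arrays or siRND3 replicate 1 or 3 was left out, with adjusted p from 0.0713 to 0.106, and its size was -0.29 with normexp background correction, -0.36 in the authors' log2 values and -0.34 for the mean of both probes, where the call was also lost (adjusted p 0.0752). At 48 h the brighter probe read 6.70 in siControl and 6.90 in siRND3.

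COL5A1, measured by a pair of probes, was the collagen called higher at 24 h. Other settings called a second one, which was COL10A1 with scaling to the 75th percentile, COL20A1 with SAM and COL26A1 without siControl replicate 1. The brighter probe read 11.39, 11.42 and 11.45 on the siControl arrays and 11.91, 11.94 and 12.09 on the siRND3 arrays. All siRND3 arrays were above all siControl arrays, and the signal rose by 0.56 (SE 0.08, limma adjusted p 0.00777). The dimmer probe read 8.78, 8.57 and 8.86 against 8.90, 9.20 and 9.01, a difference of 0.30 that did not pass (limma adjusted p 0.152). At 48 h both probes passed, with 11.37 in siControl against 12.54 in siRND3 on the brighter (difference 1.16, adjusted p 0.00246) and 8.0 against 9.14 on the dimmer (1.14, adjusted p 0.0101).

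At 48 h, with 1 array of each treatment, 11 of the 32 collagen genes passed in a limma fit of all 8 arrays that assumes the single arrays to vary like those at 24 h. Lower in siRND3 were COL4A2, COL15A1, COL13A1, COL8A1, COL7A1 and COL12A1, or 18.8% of the collagens tested, beside 13.3% of all genes. Higher were COL9A3, COL5A3, COL5A1, COL5A2 and COL4A6, or 15.6%, beside 14.2% of all genes. COL4A2, COL8A1 and COL5A1 passed at both times, in the same direction. The median difference over collagens was -0.04 (quartiles -0.39 and 0.39), with 0.06 over all genes (quartiles -0.26 and 0.37).

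COL15A1, a multiplexin of the basement membrane zone, read 6.32 in siControl and 4.68 in siRND3 at 48 h (difference -1.64, SE 0.14, limma adjusted p 0.000943). At 24 h it had read 5.83, 5.96 and 6.0 in siControl and 5.71, 5.68 and 5.82 in siRND3, with siRND3 just under siControl and no call (-0.19, adjusted p 0.191). The 48 h difference passed in each alternative tried, but measured -0.62 with normexp background correction and -0.90 in the authors' log2 values, which are not background-subtracted.

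COL13A1, a transmembrane collagen of cell adhesions, read 10.68 in siControl and 9.67 in siRND3 at 48 h (-1.02, SE 0.18, limma adjusted p 0.0112). At 24 h its arrays read 10.93, 10.72 and 10.85 in siControl and 10.57, 10.29 and 10.50 in siRND3, which did not overlap but did not pass (-0.38, limma adjusted p 0.065). With normexp correction and in the authors' log2 values COL13A1 was called lower at 24 h too. COL7A1, which forms the anchoring fibrils of the basement membrane zone, read 11.53 against 10.70 at 48 h (-0.84, SE 0.15, limma adjusted p 0.0115). Its arrays at 24 h overlapped, at 11.69, 11.56 and 11.58 in siControl and 11.37, 11.58 and 11.49 in siRND3.

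COL12A1, the FACIT chain of tendon and stress-bearing tissue, had probes that differed at 48 h. The brighter read 9.92 in siControl and 9.23 in siRND3 (-0.69, SE 0.18, limma adjusted p 0.0406) and the dimmer 6.07 and 6.03 (-0.05, adjusted p 0.946). Without siControl replicate 1, 2 or 3 or siRND3 replicate 2 the call on the brighter was lost, with adjusted p from 0.064 to 0.0787, and the mean of both probes gave -0.37, also without a call (adjusted p 0.24).

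Of the chains higher at 48 h, COL9A3, a FACIT chain best known from cartilage, read 4.51 in siControl and 6.12 in siRND3 (1.61, SE 0.26, limma adjusted p 0.00752), where at 24 h the arrays had overlapped, at 5.20, 5.44 and 5.05 in siControl and 5.49, 5.05 and 5.19 in siRND3. This difference was 0.56 with normexp correction and 0.85 in the authors' values, and passed in both. COL5A2, the usual partner of COL5A1 in type V collagen, read 9.56 and 10.26 (0.70, SE 0.15, adjusted p 0.0236), and leaving out siControl replicate 1, 2 or 3 brought its adjusted p to 0.0527, 0.0514 or 0.0537. COL5A3, the least abundant type V chain in most tissues, passed the fit but was not well above background on either array at 48 h (1.78 and 3.28), so its difference has no measured size. It is counted in the 15.6% above, and it was not called with normexp correction (0.11, limma adjusted p 0.578) or in the authors' values (0.24, adjusted p 0.363).

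COL4A6, a basement membrane chain, read 6.43 in siControl and 7.11 in siRND3 at 48 h, and 7.27, 7.08 and 7.42 against 7.30, 7.30 and 7.33 at 24 h. The siControl array at 48 h was the lowest of the 8, while the siRND3 array at 48 h lay inside the range of the siControl arrays at 24 h. The difference at 48 h was 0.68 (SE 0.18, limma adjusted p 0.0407). It missed the threshold without siControl replicate 1 or any 1 of the 3 siRND3 arrays at 24 h (adjusted p 0.0624 to 0.079). The call was also lost with scaling to the 75th percentile, with dim probes kept in, with array weights and with the replicate number as a block. The difference was 0.43 with normexp correction.

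**Figure D2:**
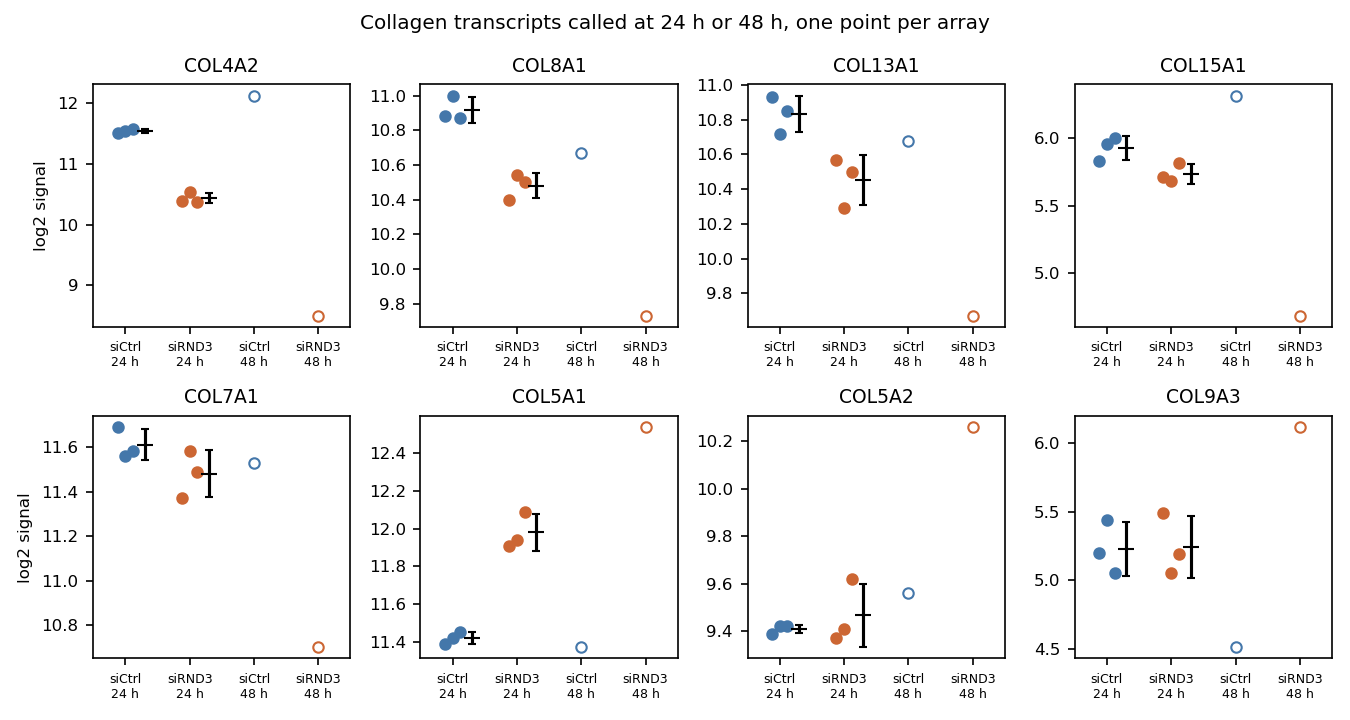
Log2 signal of 8 collagen genes called at 24 h or 48 h, with 1 point per array (filled at 24 h, open at 48 h) and a black bar for the mean and SD of the 3 arrays of a group at 24 h; each panel has its own scale. At 48 h the siControl and siRND3 arrays stand at 12.13 and 8.50 for COL4A2, at 6.32 and 4.68 for COL15A1, and at 11.37 and 12.54 for COL5A1.

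The knockdown difference itself was larger at 48 h than at 24 h in 3 collagen genes, by the interaction term of the same fit. For COL4A2 the difference at 48 h minus that at 24 h was -2.53 (SE 0.15, limma adjusted p 0.00752), for COL15A1 it was -1.45 (SE 0.17, adjusted p 0.0219) and for COL9A3 it was 1.60 (SE 0.30, adjusted p 0.0483). The pair of lower genes was 6.25% of the collagens, beside 2.56% of all genes, and the single higher gene 3.12%, beside 1.66%. None of the 3 was called in every fit with an array left out. COL4A2 lost its call without siControl replicate 1 (adjusted p 0.0547), COL15A1 without siControl replicate 1, 2 or 3 or siRND3 replicate 1 (0.0523 to 0.0751), and COL9A3 without any 1 of the 6 (0.0584 to 0.111). COL15A1 kept its call but was smaller with normexp correction (-0.53) and in the authors' values (-0.78). COL9A3 missed the threshold with normexp correction (0.57, limma adjusted p 0.0753), in the authors' values (0.86, adjusted p 0.0509), with scaling to the 75th percentile (1.46, adjusted p 0.0774) and with dim probes kept in (adjusted p 0.0805). It also missed it in the fit on the mean of each gene's probes (limma adjusted p 0.0544), where COL9A3 itself had a single probe and so the same values. The remaining tested collagen genes had no call in this fit, in which COL7A1 gave -0.70 (SE 0.17, limma adjusted p 0.0935). With normexp correction the term was called lower for COL7A1 and higher for COL5A1 and COL5A2. In the authors' values it was called lower for COL7A1.

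**Figure D3:**
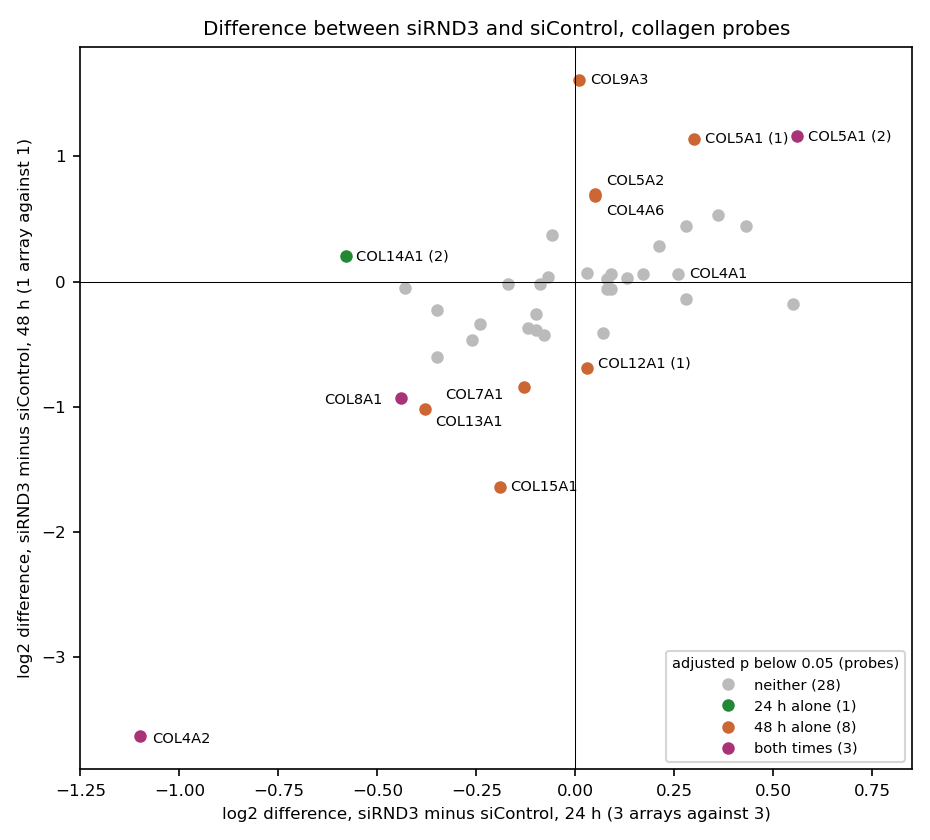
Log2 difference of siRND3 minus siControl at 24 h (horizontal) against 48 h (vertical) for 40 of the 41 tested collagen probes, coloured by the time at which they passed in limma, without COL5A3, which was not well above background at 48 h; numbers in brackets after a gene tell its probes apart. COL4A2 stands alone at the lower left at -1.10 and -3.63, and its genomic neighbour COL4A1 sits near the horizontal axis at 0.26 and 0.06.

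The times were also compared within each treatment, which shares arrays with the comparisons above. In siControl cells COL1A1 rose from 11.60, 11.58 and 11.56 at 24 h to 12.33 at 48 h (0.75, SE 0.11, limma adjusted p 0.0239) and COL4A2 rose to 12.13 (0.59, SE 0.11, adjusted p 0.0417), whereas COL4A6 fell by 0.83 (adjusted p 0.0353). COL5A3, at 4.45, 4.75 and 4.17 at 24 h, was not well above background at 48 h and was called lower (adjusted p 0.0102). It was 4.05-fold lower when set against 2.43, the lowest signal well above background of any probe on the 48 h array. That signal is no detection limit for COL5A3, so the fold is not a minimum. The higher genes were 6.25% of collagens, with 1.19% of all genes higher, and the lower genes 6.25%, with 3.99% of all genes lower. With siControl replicate 1, 2 or 3 left out, COL1A1 (adjusted p 0.0789 to 0.0895), COL4A2 (0.11 to 0.122) and COL4A6 (0.0564 to 0.103) missed the threshold. COL4A2 also missed it without siRND3 replicate 1 or 3 (0.0605 and 0.0578), and COL4A6 without any of the 3 siRND3 arrays (0.0601 to 0.0643). COL5A3 kept its call in those fits but gave -0.36 and missed it with normexp correction (adjusted p 0.0529), and gave -0.68 in the authors' values.

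In siRND3 cells 7 collagens were lower at 48 h than at 24 h, 21.9% of those tested beside 9.19% of all genes, and 2 were higher, 6.25% beside 3.61%. COL4A2 fell by 1.94 (SE 0.11, limma adjusted p 0.00185), COL15A1 by 1.05, COL13A1 by 0.79, COL7A1 by 0.78, COL8A1 by 0.75 and COL22A1, a chain of tissue junctions, by 0.67. COL4A4, a chain of specialised basement membranes such as that of the glomerulus, read 3.32 at 48 h, not well above background. It was 1.69-fold lower by that value (adjusted p 0.0264), though it gave -0.11 with normexp correction and -0.18 in the authors' values, without a call. COL5A2 rose by 0.80 (adjusted p 0.0148) and COL5A1 by 0.56 on its brighter probe (0.0298). The changes of COL4A2, COL15A1, COL7A1, COL8A1 and COL5A2 passed whichever array at 24 h was left out, and that of COL15A1 was -0.36 with normexp correction and -0.54 in the authors' values.

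The calls on the other 4 depended on single arrays. COL13A1 missed the threshold without siControl replicate 1 or 3 or siRND3 replicate 3 (adjusted p 0.0515 to 0.06), COL22A1 without any siControl array or siRND3 replicate 3 (0.0723 to 0.0826), COL4A4 without siControl replicate 2 or 3 or siRND3 replicate 2 or 3 (0.0513 to 0.0621), and COL5A1 without any siControl array or siRND3 replicate 1 or 2 (0.0546 to 0.073). COL22A1 was also -0.28 with normexp correction and -0.40 in the authors' values, without a call, and COL5A1 was 0.33 for the mean of its probes.

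COL4A1 and COL4A2 set side by side are partner chains whose values lay far apart. Their products join in the same trimer, and the genes lie head to head on chromosome 13, with 126 bases between the start sites in RefSeq (GRCh38.p14). COL4A1 read 5.74, 5.57 and 5.48 on the siControl arrays and 5.80, 6.0 and 5.78 on the siRND3 arrays at 24 h, with siRND3 just above siControl, a difference of 0.26 (95% interval 0.02 to 0.51, limma adjusted p 0.157). COL4A2 fell, with an interval of -1.28 to -0.92. At 48 h COL4A1 read 5.78 and 5.84 (0.06, interval -0.37 to 0.49) and COL4A2 12.13 and 8.50 (interval -3.95 to -3.31). The difference between the chains was not tested. COL4A1 lay near the level of the epithelial marker EPCAM, whose means at 24 h were 5.75 in siControl and 5.55 in siRND3. COL4A2 lay far above EPCAM. The other epithelial markers read, CDH1 and KRT5, had siControl means of 1.33 and 1.36 at 24 h and were well above background on no array. COL4A1 was well above background on all 8. How brightness compares between probes of different genes was not tested. Whether the COL4A1 probe could register a fall like that of COL4A2 was not tested. Each gene had a single probe, and whether either probe reads all transcripts of its gene was not tested.

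The stretch between the start sites is shown because both genes are read outwards from it. It occupies chr13:110307158-110307283 and is given on the plus strand, which reads towards COL4A2. Capitals mark a CCAAT box (CCAAT) and a GC box (GGGCGG). It was 80.2% G and C and held neither a TATA box (TATAAA) nor an AP-1 motif (TGANTCA) on either strand.
COL4A1-COL4A2: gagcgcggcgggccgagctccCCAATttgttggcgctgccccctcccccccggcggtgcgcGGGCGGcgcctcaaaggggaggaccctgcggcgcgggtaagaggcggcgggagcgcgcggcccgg

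The 250 bases before the start sites of COL5A1, which rose at both times, and of COL15A1, which fell at 48 h, are shown for comparison, read towards the gene on the plus strand with the same motifs in capitals. COL5A1 lies at chr9:134641553-134641802 and COL15A1 at chr9:98943657-98943906. COL5A1 held 2 GC boxes, both as the complement (CCGCCC), and COL15A1 held 1.
COL5A1: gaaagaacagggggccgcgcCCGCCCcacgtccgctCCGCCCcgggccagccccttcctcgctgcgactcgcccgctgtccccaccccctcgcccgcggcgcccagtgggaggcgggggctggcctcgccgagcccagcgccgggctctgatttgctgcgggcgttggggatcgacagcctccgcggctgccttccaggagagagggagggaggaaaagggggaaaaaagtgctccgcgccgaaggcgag
COL15A1: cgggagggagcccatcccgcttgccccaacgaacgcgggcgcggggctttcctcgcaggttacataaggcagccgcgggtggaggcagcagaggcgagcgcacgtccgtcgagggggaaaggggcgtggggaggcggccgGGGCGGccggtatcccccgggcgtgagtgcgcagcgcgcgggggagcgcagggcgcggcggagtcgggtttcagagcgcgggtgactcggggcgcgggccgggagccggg

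Over windows from 250 bases before to 50 after a start site, RefSeq entries matched 32 of the 44 collagen genes by symbol. A GC box stood on either strand in 18 of these 32 windows (56.2%), beside 44.6% of all 27305 windows. A CCAAT box stood in 10 (31.2%, beside 35.7%), a TATA box in 5 (15.6%, beside 12%) and the AP-1 motif in 0, beside 7.76%. The collagen windows with a CCAAT box included those of COL4A1, COL4A2, COL4A5, COL4A6 and COL5A3. Windows of head-to-head genes overlap, so a motif in shared bases counts for both genes. The GC box and CCAAT box between the COL4A1 and COL4A2 starts are counted so. These are matches of letters and say nothing of whether a factor bound there.

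The other head-to-head pair that could be measured, COL4A5 and COL4A6 on the X chromosome, has 379 bases between the starts. COL4A5 read 8.06, 8.06 and 8.03 in siControl and 7.71, 7.75 and 7.97 in siRND3 at 24 h, a difference of -0.24 (limma adjusted p 0.143), and 8.63 and 8.29 at 48 h (-0.34, adjusted p 0.198). COL4A6 differed by 0.05 at 24 h and passed as higher in siRND3 at 48 h, without a test of the difference between the chains. In siControl cells COL4A5 differed by 0.58 between 48 h and 24 h (limma adjusted p 0.0652), where COL4A6 fell by 0.83. Of COL4A3 and COL4A4 on chromosome 2, with 418 bases between starts, COL4A3 was well above background on no array.

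Chains of type I, V and VI collagen were compared as partners too. COL1A1 and COL1A2, which build type I collagen, differed between treatments by 0.07 and -0.06 at 24 h, without a call. At 48 h they differed by -0.41 (limma adjusted p 0.0886) and 0.37 (adjusted p 0.154), without a call in the reported fit. With normexp correction COL1A1 was called lower at 48 h. COL5A1 and COL5A2 both rose at 48 h, and at 24 h COL5A2 differed by 0.05, with arrays at 9.39, 9.42 and 9.42 in siControl and 9.37, 9.41 and 9.62 in siRND3. Type VI collagen, the beaded filament collagen, had no call in the 5 contrasts of the reported fits. The brighter COL6A3 probe came closest, with 48 h minus 24 h at -0.81 in siControl (limma adjusted p 0.0561) and -0.66 in siRND3 (adjusted p 0.0612). The gene was called lower in siControl and in siRND3 cells with normexp correction and in the authors' values, in siControl also with array weights and a stricter filter on dim probes, and in siRND3 also for the mean of its probes. Without siRND3 replicate 1 it was called in both. COL6A1 read 15.42, 15.31 and 15.37 in siControl and 15.29, 15.50 and 15.58 in siRND3 at 24 h, and 15.44 and 15.38 at 48 h. Its difference of 0.09 had an interval of -0.14 to 0.33. The COL6A2 probes gave 0.21 and 0.08 and the COL6A3 probes -0.17 and -0.35 at 24 h, none past the threshold.

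**Figure D4:**
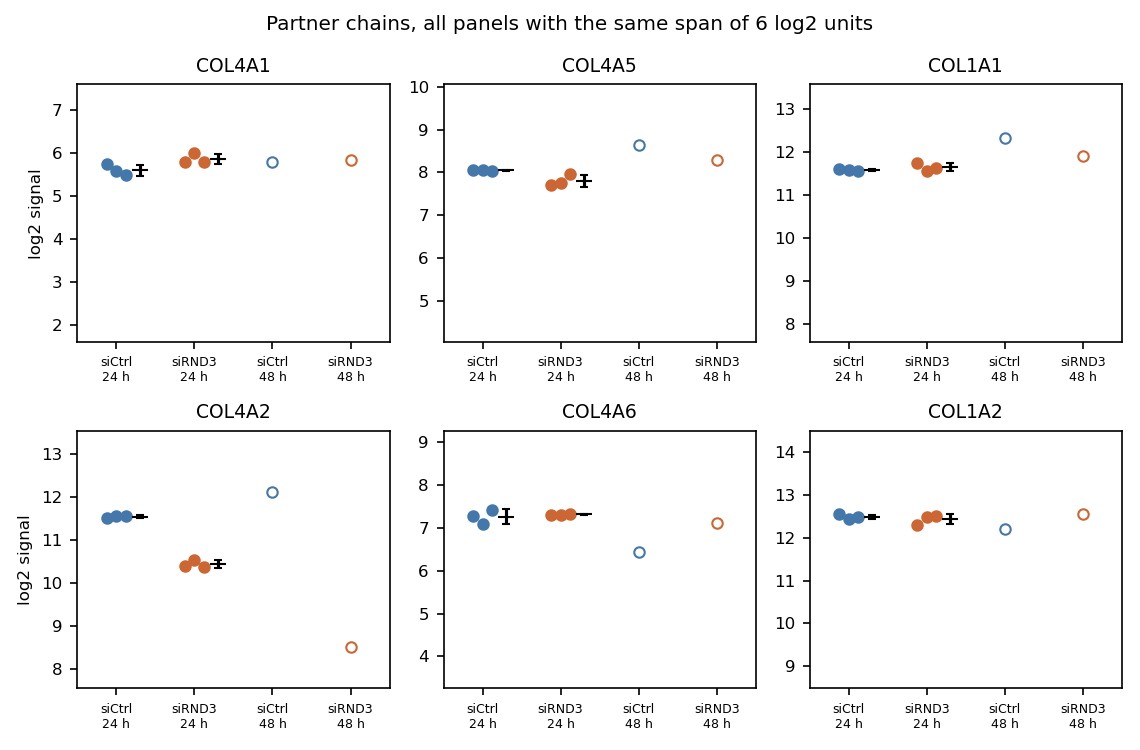
Log2 signal on each array for 3 pairs of partner chains, 1 pair per column, with points filled at 24 h and open at 48 h, a black bar for the mean and SD of 3 arrays, and every panel spanning 6 log2 units. COL4A2 drops to 8.50 on the siRND3 array at 48 h while COL4A1 stays between 5.48 and 6.0 on all 8 arrays.

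By family, the calls at 24 h fell on 1 of 7 tested fibrillar genes (higher), 1 of 5 basement membrane genes, 1 of 3 short-chain genes and 1 of 8 FACIT genes (all lower). Over all genes 9.26% were lower and 7.16% higher at that time. At 48 h, 3 of 7 fibrillar genes were called, all of them type V chains and higher, with COL5A3 among them without a measured size. Lower at 48 h were 1 of 5 basement membrane, 1 of 8 FACIT, 1 of 3 short-chain, 1 of 2 transmembrane and 1 of 2 multiplexin genes and the 1 anchoring-fibril gene, and 1 of 5 basement membrane and 1 of 8 FACIT genes were higher. Over all genes 13.3% were lower and 14.2% higher. With so few genes in a family, nothing is read from these shares.

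No contrast called 17 of the tested collagen genes, each with a probe well above background on all 8 arrays. Over their 22 such probes the difference between siRND3 and siControl ranged from -0.35 to 0.43 at 24 h and from -0.60 to 0.53 at 48 h. Closest to the threshold at 24 h among these probes were COL10A1 of hypertrophic cartilage (0.28, limma adjusted p 0.062), COL8A2, the partner of COL8A1 (-0.35, adjusted p 0.0642), COL18A1, the source of endostatin (0.28, adjusted p 0.0782), and COL4A5. Without siControl replicate 3, COL8A2 was called lower at 24 h. COL20A1, a FACIT chain, also had a dimmer probe outside these ranges, well above background on 5 of 8 arrays, at 3.34, 3.05 and 3.48 in siControl and 4.14, 3.65 and 3.73 in siRND3 (0.55, limma adjusted p 0.0852). That probe did not overlap between the groups, and the brighter one gave 0.08. A missed threshold does not show that these were the same in both treatments. Of the 8 genes with several tested probes, 3 had differences of both signs at 24 h.

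Genes that act on collagen were counted from 6 lists. At 24 h every gene of these lists that passed in limma was lower in siRND3, beside 9.26% of all genes lower and 7.16% higher. At 48 h the list counts stand beside 13.3% of all genes lower and 14.2% higher. Of 13 tested genes of hydroxylation and glycosylation 1 was lower, P3H4, a partner of the lysyl and prolyl hydroxylases in the endoplasmic reticulum. It read 12.49, 12.53 and 12.55 in siControl and 10.72, 10.63 and 10.56 in siRND3, a fall of 1.89 (SE 0.08, limma adjusted p 0.000144). At 48 h it was 12.74 against 10.20, and P4HA1, PLOD1, PLOD2 and CRTAP were also lower, so that 5 of 13 passed.

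Of 22 genes of folding and secretion 4 were lower at 24 h. FKBP14, a prolyl isomerase that acts on procollagen, read 9.89, 9.98 and 9.79 in siControl and 6.78, 7.12 and 6.99 in siRND3, and it fell by 2.93 (SE 0.11, limma adjusted p 0.000139), more than any other gene of the lists at 24 h. HSPA5, the main chaperone of the endoplasmic reticulum, fell by 0.52 (adjusted p 0.00539). CREB3L2, a transcription factor of secretory cells, fell by 0.57 on 1 of 2 probes (adjusted p 0.0146), where the other gave -0.08, and MIA2, of the exit sites for large cargo, fell by 0.63 on 1 of 2 tested probes (adjusted p 0.00992), where the other gave 0.01. At 48 h 5 were lower and 3 higher, the latter MIA3, SAR1B and KLHL12, which serve the export of large procollagen carriers. MIA3 passed on 1 of its 4 probes (0.78, limma adjusted p 0.0112), where the others gave 0.79 (adjusted p 0.0506), 0.04 and -0.25.

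Of 14 genes of processing and crosslinking 5 were lower at 24 h. The oxidases that crosslink collagen and elastin were among them, with LOX down from 10.07, 10.21 and 10.06 to 9.73, 9.75 and 9.71 (-0.38, SE 0.08, limma adjusted p 0.0256), LOXL1 by 0.57 (adjusted p 0.0157) and LOXL2 by 0.29 (adjusted p 0.0448). The convertase FURIN fell by 0.44 (adjusted p 0.028). The procollagen N-proteinase ADAMTS14 fell by 1.15 (adjusted p 0.0123), with 2 of its 3 siRND3 arrays well above background. At 48 h the same 5 and TGM2, a transglutaminase, were lower and none was higher, with ADAMTS14 no longer well above background in siRND3, and the median difference was -0.55 over the list and 0.06 over all genes. TGM2 passed at -1.95 on a single probe, which gave -0.59 at 24 h (limma adjusted p 0.0554). Its other probe gave -0.22 at 48 h and 0.21 at 24 h. At 24 h SAM called TGM2 lower and did not call LOXL2.

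Of 10 receptor genes 3 were lower at 24 h. These were OSCAR, a collagen receptor of myeloid cells, by 0.74 on 1 of 2 probes (limma adjusted p 0.00413; the other gave 0.10), ITGA2 by 0.54 (adjusted p 0.0264) and ITGA10 by 0.36 (adjusted p 0.0456), both alpha subunits of collagen-binding integrins. At 48 h MRC2, which takes up collagen fragments, and ITGA11 were lower as well. Of 12 genes of degradation MMP2, a gelatinase that also cleaves type IV collagen, was lower at 24 h. It read 11.82, 11.75 and 11.96 in siControl and 11.23, 11.08 and 11.06 in siRND3 (-0.72, SE 0.09, adjusted p 0.00505), and 12.25 and 9.34 at 48 h. At 48 h MMP14 and TIMP3 were lower and CTSK and TIMP4 higher. Of 15 fibril partners, such as fibronectin and the small proteoglycans, 0 passed at 24 h in limma and 0 in SAM, with 4 at an unadjusted p under 0.05, and FN1, NID2 and TNXB were lower and THBS2 higher at 48 h. THBS2 passed on its dimmer probe (0.59), where the brighter gave 0.01. TNXB passed at -1.34 and -0.75, where its other probes gave -0.06, -0.55 and 0.05.

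**Figure D5:**
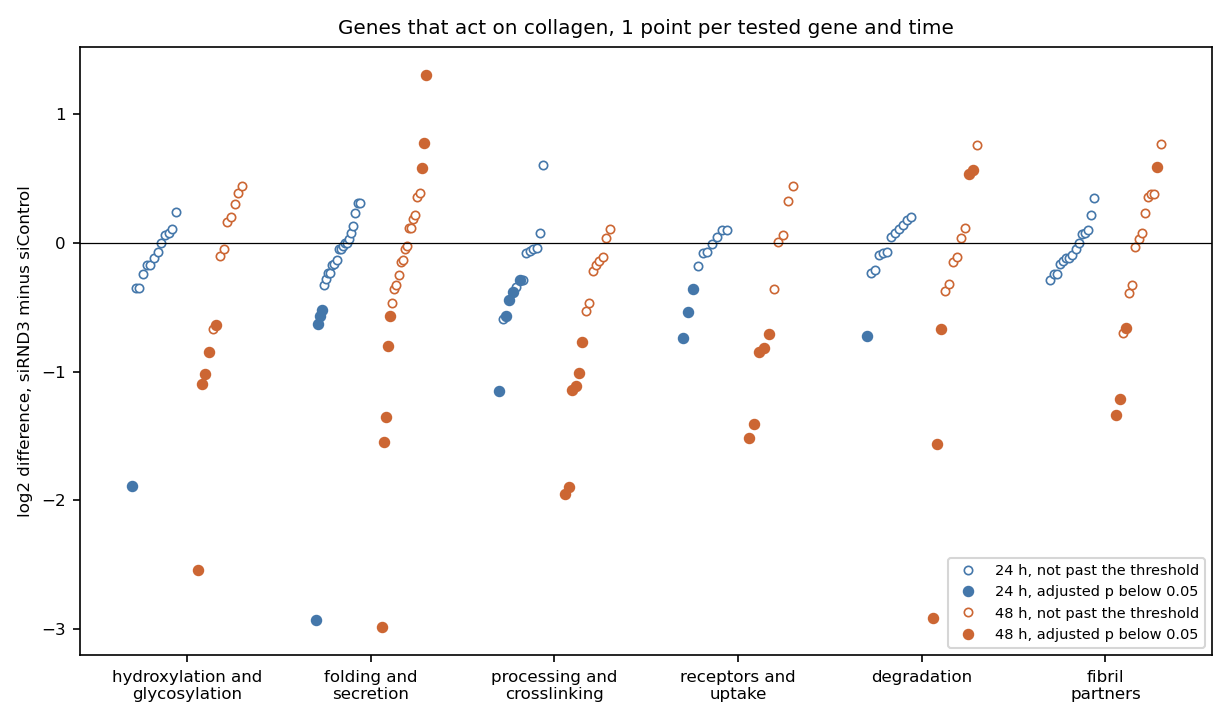
Log2 difference of siRND3 minus siControl at 24 h (blue) and 48 h (orange) for each tested gene of 6 lists, using the probe with the lowest adjusted p at that time, filled where that adjusted p in limma was below 0.05. All filled points at 24 h lie below 0, with FKBP14 lowest at -2.93, and the filled points above 0 appear at 48 h in folding and secretion, degradation and fibril partners.

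Marker genes were read to check the cells. VIM, CD44, NES, FN1 and S100A6, typical of this line, were well above background on all 8 arrays, though CD44 fell by 0.58 (limma adjusted p 0.00722) and NES rose by 0.41 on 1 of 2 probes (adjusted p 0.0472) at 24 h, with -2.12 and 2.10 at 48 h (adjusted p 0.000434 and 0.000798). Of the glial markers FABP7 was well above background on all 8, OLIG2 on 7, S100B on 1 and GFAP and SOX2 on none. OLIG2 fell by 1.40 at 24 h (adjusted p 0.00166) and read 5.64 and 2.98 at 48 h, the latter not well above background, and the glial markers' summed linear signal was 54.0 to 73.0 in siControl and 41.4 to 44.0 in siRND3 at 24 h and 73.8 and 43.5 at 48 h. CDKN2A, known to be deleted in U87, had 1 of 2 probes well above background on all 8 arrays, at 9.13 to 9.58. Markers of fibroblasts and pericytes (DCN, FAP, LUM, PDGFRB and THY1) were all well above background on all 8, and at 24 h their summed linear signal was 5940 to 6010 on the siControl arrays and 5150 to 5750 on the siRND3 arrays, though none of the 5 passed. At 48 h it was 6080 and 5300, and FAP was lower (-0.55, limma adjusted p 0.0348) and THY1 higher (0.78, adjusted p 0.0102). The 3 endothelial markers summed to 255 to 283 and 258 to 285 at 24 h and to 324 and 261 at 48 h. PECAM1 fell by 0.99 on 1 of 2 tested probes at 24 h (limma adjusted p 0.0216), where the other gave -0.58 (adjusted p 0.064), and CDH5 and VWF gave 0.31 and -0.06. At 48 h the first PECAM1 probe read 6.69 and 3.24, the latter not well above background, and the other passed at -1.03 (adjusted p 0.044). The leukocyte markers CD14, CD3E and PTPRC were well above background on all 8 arrays and none passed, with sums of 140 to 177 and 177 to 197 at 24 h and 241 and 211 at 48 h. Of the epithelial markers EPCAM was so on all 8 and CDH1 and KRT5 on none. The part of these markers in the collagen differences was not tested. In bulk RNA, fewer cells of a type and less RNA per cell cannot be told apart.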

How the data were processed

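Total RNA was labelled with Cy3 and hybridised to Agilent arrays, 1 per sample. The authors scanned the arrays with Agilent Feature Extraction 10.7.3.1, and the deposited scanner files hold spot intensity, background-corrected within each array on a linear scale. The authors also deposited quantile-normalised log2 values, which had the rank order of the spot medians (Spearman correlation 1 on each array) and so no background subtraction.

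Here the processed intensities were put on the log2 scale and quantile-normalised together without the 4259 control spots, outlier spots (0.364% to 0.530% per array) were dropped and spots of a probe averaged. No spot was saturated. A probe was well above background where at least 50% of its spots were so marked. Accessions matched a RefSeq gene for 25422 of 42405 probes. The array was designed on hg19, so coordinates come only from RefSeq on GRCh38.p14.

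Differences were fitted with limma 3.58.1 in R 4.3.3, over 28762 probes of 14805 genes with Benjamini-Hochberg adjustment and a threshold of 0.05, on 6 arrays at 24 h and on 4 groups of 8 arrays otherwise. A gene was called when at least 1 probe passed and none passed the other way. The fits were tested on simulated data. Where a group had no array well above background, the fold sets the brighter group against the higher of the dim probe's value and the array's lowest signal well above background. That lowest signal can come from any probe, so such a fold is not a minimum.

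The number of arrays limits the precision. Collagens, lists and tests were chosen with earlier results of these data known. Named were RND3, all collagens called in any contrast, the 4 uncalled collagens closest to the threshold at 24 h, partner chains, and list genes past the threshold at 24 h. List genes named from the 48 h comparison, marker genes given with values and collagens named under alternatives were added after their values were seen. Alternatives were scaling to the 75th percentile, normexp with offset 50 (on spot medians), the authors' log2 values, and no and stricter dim filters. Further ones were array weights, probe means, normalisation over 6 arrays and SAM at 5% false discovery. Also tried were 4 groups in the fit, a replicate block and each array at 24 h left out.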

Additional observations from a re-analysis of the deposited data

Results flagged for a closer look

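The interaction term in limma passed in 3 collagens. The difference at 48 h minus that at 24 h was -2.53 for COL4A2, -1.45 for COL15A1 and 1.60 for COL9A3, each resting on single arrays at 48 h. With normexp correction and in the authors' values COL15A1 gave -0.53 and -0.78, and COL9A3 gave 0.57 and 0.86 and missed the threshold (limma adjusted p 0.0753 and 0.0509).

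Outside the tested probes, 4 collagen genes were well above background on an siRND3 array and with that probe on no other siRND3 array. On the siRND3 array at 48 h the log2 signal was 2.54 for COL17A1, 3.29 for COL19A1 and 4.32 for COL21A1, where the siControl array at 48 h read 1.25, 1.32 and 2.95 and was not well above background. The COL17A1 value at 48 h lies among its arrays at 24 h, none well above background, which read 2.5, 2.58 and 2.80 in siControl and 2.53, 2.88 and 3.07 in siRND3. COL24A1 read 4.28 on siRND3 replicate 1 at 24 h, and 2.98, 2.98 and 2.16 on the siControl arrays.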

How the results depend on the processing

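Of 31 results for single collagen genes in the 5 contrasts, 8 passed the threshold under each alternative that could be run, and 0 changed direction. The 8 were COL4A2 and COL5A1 at 24 h and COL4A2, COL5A1, COL8A1, COL13A1, COL15A1 and COL9A3 at 48 h. Arrays were left out only at 24 h. Those fits kept the differences between the single arrays at 48 h and changed only their error and adjusted p. They cannot show whether a difference at 48 h would repeat. With an array left out, the collagen genes called at 24 h numbered 2 to 4 (main 4, and 2 without siControl replicate 2), those whose difference varied with time 0 to 2 (main 3, and 0 without siControl replicate 1), those that varied with time in siControl 1 to 3 (main 4) and in siRND3 5 to 10 (main 9, and 5 without siControl replicate 3). The labels do not say whether same-numbered arrays were prepared together. Deviations of same-numbered arrays from their group means correlated at 0.00192, -0.0118 and 0.128, which with 3 arrays per group cannot decide it. With the replicate number as a block in the fit, 2 genes were called at 24 h, 7 at 48 h, and 0 in each of the other 3 contrasts. Normexp correction raised the count that differed between times to 5, and the authors' log2 values raised the count in siControl over time to 7. The median over collagens at 24 h went from -0.02 to 0.03 with scaling to the 75th percentile. Counts at 24 h and 48 h were otherwise within 1.5 times the main count, and why any of these moved was not tested.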
